A study of Saccharomyces cerevisiae with 48 samples.

Results

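Chromosomes II and XVI of budding yeast, *Saccharomyces cerevisiae*, were followed through meiotic S phase as relative DNA copy number. Their members are the 669 listed positions on these chromosomes, out of 4568 on all 16 chromosomes. Chromosome II has 313 positions, 89 on the left arm and 224 on the right, with the centromere nearest the position at 237.5 kb. Chromosome XVI has 356 positions, 213 on the left arm and 143 on the right, with the centromere nearest the position at 555 kb. Positions lie 2.5 kb apart, and coordinates are those of the sacCer2 build. Listed positions run from 10 to 802.5 kb on chromosome II and from 20 to 925 kb on chromosome XVI. Chromosome II has 4 gaps in the list (after 30, 220, 260 and 470 kb), and chromosome XVI has 3 (after 57.5, 805 and 845 kb).

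Total DNA came from synchronized meiotic cultures in potassium acetate at 30 °C, sampled from 1 to 4 hr after transfer in 7 samples per culture. There were 3 backgrounds, DDK OP, tof1∆ and WT, each as an ars∆ and an ARS+ strain with 1 culture, which makes 6 cultures. DDK OP strains overproduce DDK, the Cdc7-Dbf4 kinase that activates licensed origins, tof1∆ strains lack Tof1, a component of the replication fork, and WT strains carry neither change. The study is known to have deleted replication origins (ARS elements) on the left arm of chromosome III in ars∆ strains and to have kept them in ARS+ strains, which was not checked in these data. Promoters or copy numbers behind the overproduction are not given in the labels.

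A yeast chromosome is copied from many origins, each of which fires with its own probability and timing. Sequence copied early has more copies than sequence still waiting, so a copy-number profile in mid S phase has peaks near early origins and valleys where forks arrive late. Centromeres of budding yeast are known to replicate early, and chromosome ends late. Meiotic S phase uses largely the same origins as mitotic S phase and takes longer.

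Each ratio was divided by the median ratio of its sample and put on the log2 scale, so 0 is the level of the median position of the genome. The level of a culture was its mean over 1 to 4 hr. The gain was its mean over 2 to 4 hr less its own value at 1 hr, a difference that removes anything constant over time. A positive level means more copies than the median position. A positive gain means a rise above the value at 1 hr, which can be a growing excess over the median position or a shrinking deficit. The number of reads behind a ratio is unknown, and a culture is the unit of replication. ARS+ and ars∆ cultures of 1 background served as its replicates, so the exact tests rest on at most 6 cultures. Window tests (limma) weigh a window's own spread between cultures (2 residual degrees of freedom) with the spread pooled over all windows (29.8 prior degrees of freedom).

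Both chromosomes averaged slightly below the median position in every culture. The mean of chromosome II was -0.0025 and -0.013 in DDK OP ars∆ and ARS+, -0.016 and -0.010 in tof1∆ ars∆ and ARS+, and -0.0024 and -0.012 in WT ars∆ and ARS+. Its mean was lower than that of the other 14 chromosomes in 6 of 6 cultures, by -0.0131 ± 0.0059 (SD, n = 6, exact two-sided sign-flip p = 0.031, adjusted p = 0.0625 over 8 contrasts). The mean of chromosome XVI was -0.011 and -0.016 in DDK OP ars∆ and ARS+, -0.0087 and -0.0061 in tof1∆ ars∆ and ARS+, and -0.014 and -0.010 in WT ars∆ and ARS+. It was lower than the other chromosomes in 6 of 6 cultures, by -0.0149 ± 0.0050 (SD, n = 6, exact p = 0.031, adjusted p = 0.0625). An exact p of 0.031 is the smallest that 6 cultures allow. In level 4 of the 8 contrasts reached it, and adjustment took them to 0.0625, so none passed 0.05. Counted from the lowest of 16 chromosomes, chromosome XVI ranked 3rd and chromosome II 4th in level.

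In gain, chromosome II gained less than the other chromosomes in 6 of 6 cultures, by -0.0142 ± 0.0034 (SD, n = 6, exact p = 0.031, adjusted p = 0.0625). Chromosome XVI did so in 4 of 6, by -0.0089 ± 0.0092 (SD, n = 6, exact p = 0.125, adjusted p = 0.143). The exceptions were the tof1∆ cultures, where chromosome XVI stood 0.0023 (ars∆) and 0.0032 (ARS+) above the other chromosomes. It stood -0.0125 and -0.0131 from them in DDK OP ars∆ and ARS+, and -0.0151 and -0.0180 in WT ars∆ and ARS+.

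The arms of chromosome II differed by less than the spread between cultures. The left arm minus the right arm was -0.0051 ± 0.0104 in level (lower in 5 of 6 cultures; SD, n = 6, exact p = 0.25, adjusted p = 0.25), and between -0.0089 and -0.0032 with 1 culture left out at a time. The left arm of chromosome XVI was lower than its right arm in 5 of 6 cultures, by -0.0135 ± 0.0133 (SD, n = 6, exact p = 0.094, adjusted p = 0.125). In gain the left arm of chromosome XVI averaged -0.013 ± 0.012 and its right arm 0.0019 ± 0.0085 (SD, n = 6 each). The gain of the left arm was below 0 in 5 of 6 cultures, and that of the right arm above 0 in 5 of 6.

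The pericentromere, the sequence within 25 kb of the centromere, was over-represented on chromosome II in every culture. Its 17 positions had levels of 0.072 and 0.049 in DDK OP ars∆ and ARS+, 0.039 and 0.031 in tof1∆ ars∆ and ARS+, and 0.108 and 0.036 in WT ars∆ and ARS+. They exceeded the rest of the chromosome by 0.069 ± 0.027 (higher in 6 of 6 cultures; SD, n = 6, exact p = 0.031, adjusted p = 0.0625). In gain the excess was 0.111 ± 0.014 (higher in 6 of 6 cultures; SD, n = 6, exact p = 0.031, adjusted p = 0.0625), with the 6 cultures between 0.089 and 0.124. The cultures were closer together in gain than in level, where WT ars∆ stood above the others at 0.117.

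The pericentromere of chromosome XVI had a smaller excess. Its 20 positions exceeded the rest of the chromosome by 0.025 ± 0.013 in level (higher in 6 of 6 cultures; SD, n = 6, exact p = 0.031, adjusted p = 0.0625). In gain the excess was 0.044 ± 0.017 (again in 6 of 6; SD, n = 6, exact p = 0.031, adjusted p = 0.0625). By strain, its level was 0.0021 and -0.0089 in DDK OP ars∆ and ARS+, 0.029 and 0.031 in tof1∆ ars∆ and ARS+, and 0.014 and 0.011 in WT ars∆ and ARS+. In level both DDK OP cultures were thus below both WT cultures and both tof1∆ cultures above them. This order did not hold in gain, where the pericentromere was at 0.023 and 0.0096 in DDK OP ars∆ and ARS+, 0.054 and 0.047 in tof1∆ ars∆ and ARS+, and 0.056 and 0.018 in WT ars∆ and ARS+. With 2 cultures against 2, an exact test cannot go below 0.333, and these are values only.

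The outer 30 kb of listed positions at the ends were lower on average than the rest of each chromosome. Ends of chromosome II minus the rest were -0.016 ± 0.017 in level (lower in 5 of 6 cultures; SD, n = 6, exact p = 0.094, adjusted p = 0.125) and -0.048 ± 0.020 in gain (lower in 6 of 6 cultures; SD, n = 6, exact p = 0.031, adjusted p = 0.0625). Ends of chromosome XVI minus the rest were -0.012 ± 0.020 in level (lower in 4 of 6 cultures; SD, n = 6, exact p = 0.25, adjusted p = 0.25). Without DDK OP ARS+ the differences in level were -0.0098 for chromosome II and -0.0068 for chromosome XVI. For chromosome XVI the difference was -0.0077 without tof1∆ ars∆ and -0.0028 over 1.5 to 3 hr. In gain they were -0.024 ± 0.032 (lower in 5 of 6 cultures; SD, n = 6, exact p = 0.125, adjusted p = 0.143). The exception was WT ARS+, where the ends of chromosome XVI gained 0.034 more than the rest. The left end of chromosome XVI averaged a gain of -0.0066 ± 0.0199 and its right end -0.052 ± 0.031 (SD, n = 6 each). The left end of chromosome II averaged -0.066 ± 0.030 and its right end -0.049 ± 0.023 (SD, n = 6 each).

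**Figure D1:**
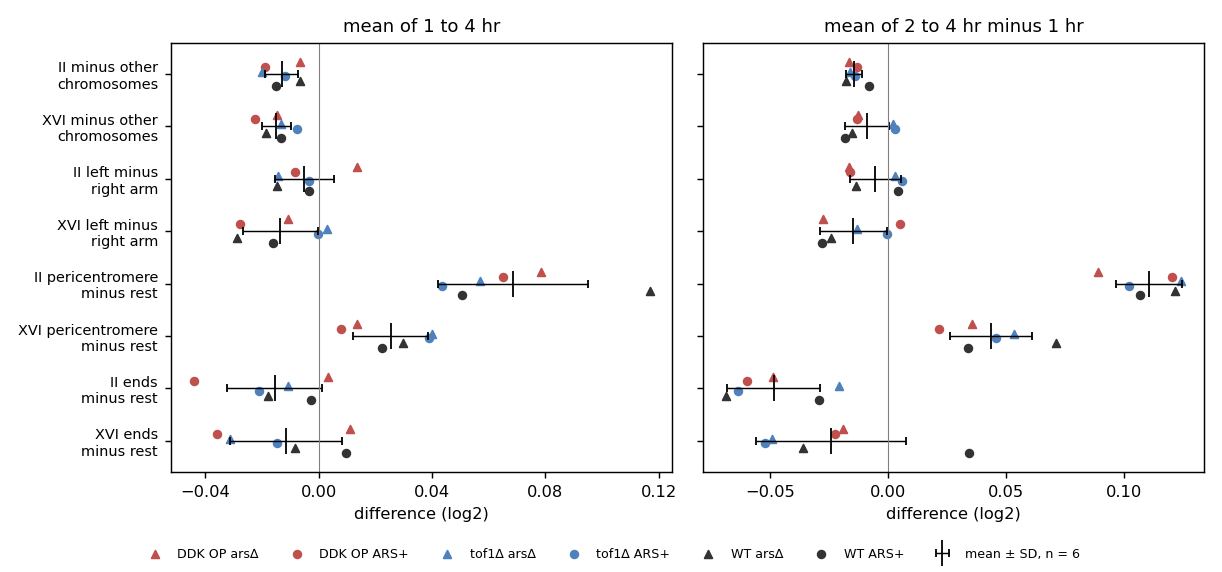
Differences within and between chromosomes in each of the 6 cultures, as the mean of 1 to 4 hr (left) and the mean of 2 to 4 hr minus 1 hr (right), both in log2 units; the black bar is the mean ± SD over 6 cultures. All 6 cultures lie above 0 for both pericentromeres, and in gain the tof1∆ cultures alone lie above 0 for chromosome XVI against the other chromosomes.

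Along chromosome II the gain formed a broad early dome at the centromere between late flanks. Cut into domains of 50 kb, the chromosome had 17 domains, of which 3 had a gain above 0 in 6 of 6 cultures and 8 a gain below 0 in 6 of 6. On chromosome XVI the numbers were 2 and 5 of 19 domains, and the signs of 12 domains were mixed. Over the genome 24.8% of 246 domains were above 0 in 6 of 6 cultures and 28.5% below 0. On the pair of chromosomes the share above 0 was under this background (13.9%) and the share below 0 over it (36.1%). Neighbouring domains of 1 sign in 6 of 6 cultures were joined into blocks. This choice was made on these gains, so the values of blocks are a description and were not tested.

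The early block of chromosome II was 150 kb long, from 150 to 300 kb, and held the centromere. Its gain was 0.045 and 0.069 in DDK OP ars∆ and ARS+, 0.064 and 0.063 in tof1∆ ars∆ and ARS+, and 0.079 and 0.062 in WT ars∆ and ARS+. Its 3 domains had mean gains of 0.037 ± 0.016 (150 to 200 kb), 0.086 ± 0.016 (200 to 250 kb) and 0.071 ± 0.015 (250 to 300 kb; SD, n = 6 each). The excess was highest over the centromere and larger on its right flank than on the outer left one.

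In domains of 50 kb, the left arm outside this block was late throughout. The block from 0 to 150 kb had a mean gain of -0.058 ± 0.015 (SD, n = 6), with cultures between -0.080 and -0.033. Its 3 domains were alike, at -0.060 ± 0.026, -0.063 ± 0.022 and -0.051 ± 0.010 (SD, n = 6 each). On chromosome II the change of sign at 150 kb separated a domain at -0.051 from its neighbour at 0.037, both in 6 of 6 cultures.

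In domains of 50 kb, the right arm of chromosome II had a level middle and a late outer part. Between 300 and 500 kb the 4 domains had mean gains from -0.0061 to 0.014 with mixed signs, so their means lay near the median of the genome. Shorter features within the stretch averaged out. As a running mean over 5 positions, the gain was 0.030 ± 0.032 at 402.5 kb and -0.049 ± 0.035 at 447.5 kb (4 DDK OP and tof1∆ cultures, SD, n = 4 each). The block from 500 to 600 kb was late, at -0.035 ± 0.010, and the block from 650 to 800 kb later, at -0.057 ± 0.011 (SD, n = 6 each). The domain between them, from 600 to 650 kb, gained 0.014 ± 0.019 (SD, n = 6) and was above 0 in 5 of 6 cultures. The lowest domain of the arm was 700 to 750 kb, at -0.067 ± 0.014 (SD, n = 6).

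Chromosome XVI had lower relief. Its largest late block lay on the left arm from 100 to 250 kb, with gains of -0.054 and -0.053 in DDK OP ars∆ and ARS+, -0.033 and -0.032 in tof1∆ ars∆ and ARS+, and -0.069 and -0.050 in WT ars∆ and ARS+. Over the block the tof1∆ cultures were the least late, and of its domains this held only at 150 to 200 kb. At 100 to 150 kb tof1∆ ars∆ (-0.0445) was below both DDK OP cultures (-0.0423 in ars∆ and -0.0376 in ARS+). At 200 to 250 kb WT ARS+ (-0.0373) was less late than tof1∆ ars∆ (-0.0386) and ARS+ (-0.0390). A second late domain lay at 300 to 350 kb (-0.038 ± 0.013; SD, n = 6), and another on the right arm at 700 to 750 kb (-0.037 ± 0.013; SD, n = 6).

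Domains of chromosome XVI with a gain above 0 in 6 of 6 cultures were weak next to those of chromosome II. In level their signs were mixed, with 3 of 6 cultures above 0 at 550 to 600 kb and 4 of 6 at 650 to 700 kb. The domain with the centromere, 550 to 600 kb, gained 0.012 and 0.017 in DDK OP ars∆ and ARS+, 0.038 and 0.019 in tof1∆ ars∆ and ARS+, and 0.034 and 0.011 in WT ars∆ and ARS+. The domain from 650 to 700 kb gained 0.017 ± 0.018 (SD, n = 6), and without tof1∆ ars∆, at 0.053, its cultures lay between 0.0068 and 0.018. Its mean was -0.010 at 1 hr, still -0.0060 at 2.5 hr, and 0.019 at 3 hr, so its gain reflected a low value at 1 hr and a late rise. Larger means with mixed signs were found at 400 to 450 kb (0.033 ± 0.040), 500 to 550 kb (0.028 ± 0.026) and 600 to 650 kb (0.033 ± 0.020; SD, n = 6 each). At 400 to 450 kb 2 of the cultures lay below 0, and in each of the other two 1 did.

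**Figure D2:**
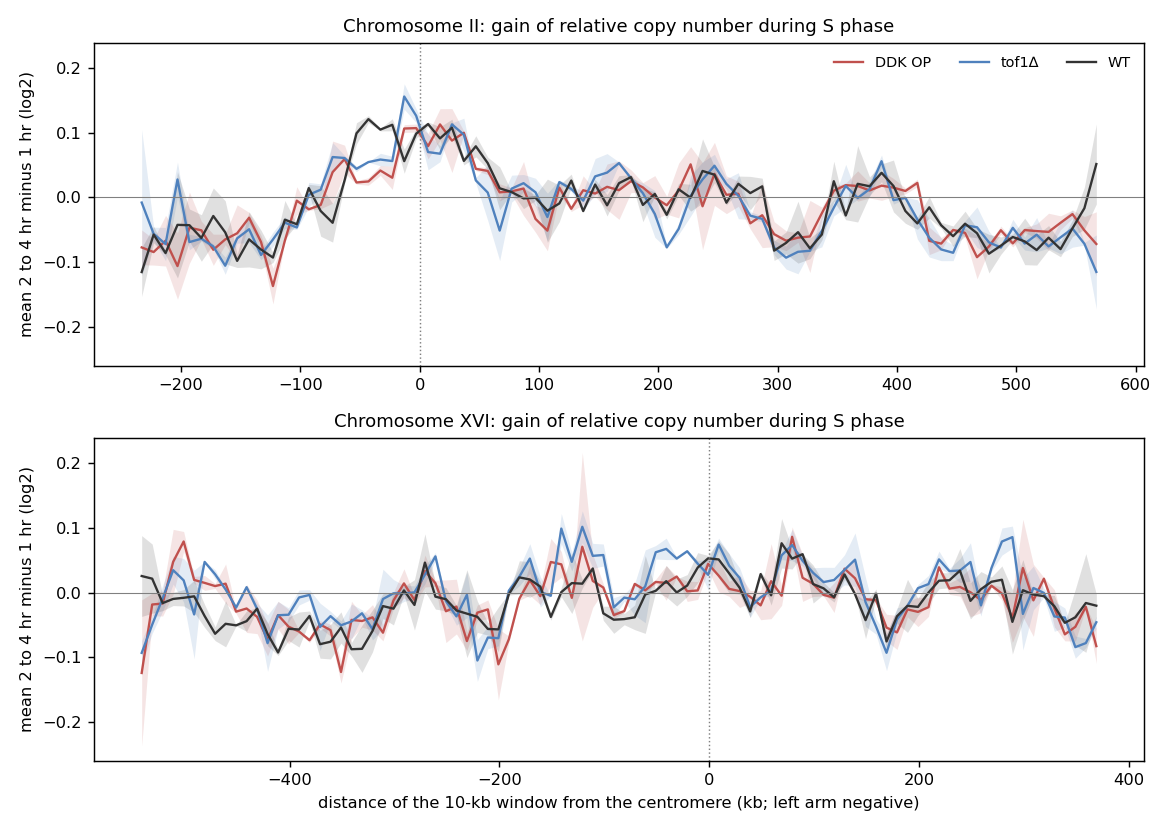
Gain of relative copy number (mean of 2 to 4 hr minus 1 hr, log2) in 10-kb windows against distance from the centromere in kb, for chromosome II (top) and XVI (bottom). Lines are the mean of the ars∆ and ARS+ cultures of a background and bands span the pair; on chromosome II the centromeric dome and the late flanks are shared by the 3 backgrounds.

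The relief grew with time. The SD over the 81 windows of chromosome II averaged 0.046 ± 0.003 at 1 hr, 0.048 ± 0.004 at 2 hr, 0.080 ± 0.016 at 3 hr and 0.065 ± 0.006 at 4 hr (SD, n = 6 each). Over the 92 windows of chromosome XVI it averaged 0.048 ± 0.005 at 1 hr, 0.047 ± 0.002 at 2 hr, 0.064 ± 0.011 at 3 hr and 0.056 ± 0.008 at 4 hr (SD, n = 6 each). Chromosome II had the larger SD in 3 of 6 cultures at 1 hr and in 6 of 6 at 3 and 3.5 hr. The SD of chromosome II was highest at 3 hr in 5 cultures and at 3.5 hr in WT ARS+. On chromosome XVI the highest SD came at 2.5 hr in tof1∆ ARS+, at 3 hr in tof1∆ ars∆ and WT ars∆, at 3.5 hr in DDK OP ars∆ and WT ARS+, and at 4 hr in DDK OP ARS+.

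The centromeric block of chromosome II was at -0.011 ± 0.012 at 1 hr, 0.018 ± 0.017 at 2 hr, 0.057 ± 0.025 at 2.5 hr, 0.073 ± 0.030 at 3 hr and 0.051 ± 0.016 at 4 hr (SD, n = 6 each). From 2.5 hr on it was above 0 in 6 of 6 cultures. At 3 hr it stood at 0.061 and 0.066 in DDK OP ars∆ and ARS+, 0.064 and 0.070 in tof1∆ ars∆ and ARS+, and 0.132 and 0.045 in WT ars∆ and ARS+. The WT cultures gave both the highest and the lowest value, so the backgrounds overlapped.

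The late left block of chromosome II, 0 to 150 kb, was at 0.0037 ± 0.0204 at 1 hr, -0.018 ± 0.015 at 2 hr, -0.080 ± 0.041 at 3 hr, -0.075 ± 0.031 at 3.5 hr and -0.056 ± 0.015 at 4 hr (SD, n = 6 each). At 3 hr it stood at -0.020 and -0.0998 in DDK OP ars∆ and ARS+, -0.114 and -0.106 in tof1∆ ars∆ and ARS+, and -0.104 and -0.038 in WT ars∆ and ARS+. The late right block, 650 to 800 kb, reached -0.072 ± 0.034 at 3 hr and -0.077 ± 0.021 at 3.5 hr (SD, n = 6 each). In that block both tof1∆ cultures were low at 3 hr, with -0.108 in ars∆ and -0.091 in ARS+, and the other 4 cultures ran from -0.095 to -0.016.

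The late left block of chromosome XVI, 100 to 250 kb, was at -0.0036 ± 0.0048 at 1 hr, -0.019 ± 0.022 at 2 hr, -0.069 ± 0.031 at 3 hr and -0.057 ± 0.023 at 4 hr (SD, n = 6 each). At 2 hr both tof1∆ cultures were just above 0, with 0.0037 in ars∆ and 0.0027 in ARS+, and the 4 others lay between -0.052 and -0.013. At 1.5 hr tof1∆ ars∆ had been at 0.015 and tof1∆ ARS+ at -0.023. The centromeric domain of chromosome XVI showed no such early excess. It was below 0 in 6 of 6 cultures at 2 hr (-0.013 ± 0.010; SD, n = 6) and averaged 0.022 ± 0.038 at 3 hr and 0.021 ± 0.029 at 4 hr (SD, n = 6 each). This domain starts at 550 kb and lies mostly right of the centromere. The pericentromere, with both sides, was at -0.0045 ± 0.0146 at 2 hr (3 of 6 cultures above 0) and 0.0092 ± 0.0097 at 2.5 hr (5 of 6 above 0; SD, n = 6 each). At 3 hr the domain was -0.020 and -0.0089 in DDK OP ars∆ and ARS+, 0.071 and 0.041 in tof1∆ ars∆ and ARS+, and 0.053 and -0.0046 in WT ars∆ and ARS+. The DDK OP cultures were the lowest and the tof1∆ cultures among the highest at that time.

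**Figure D3:**
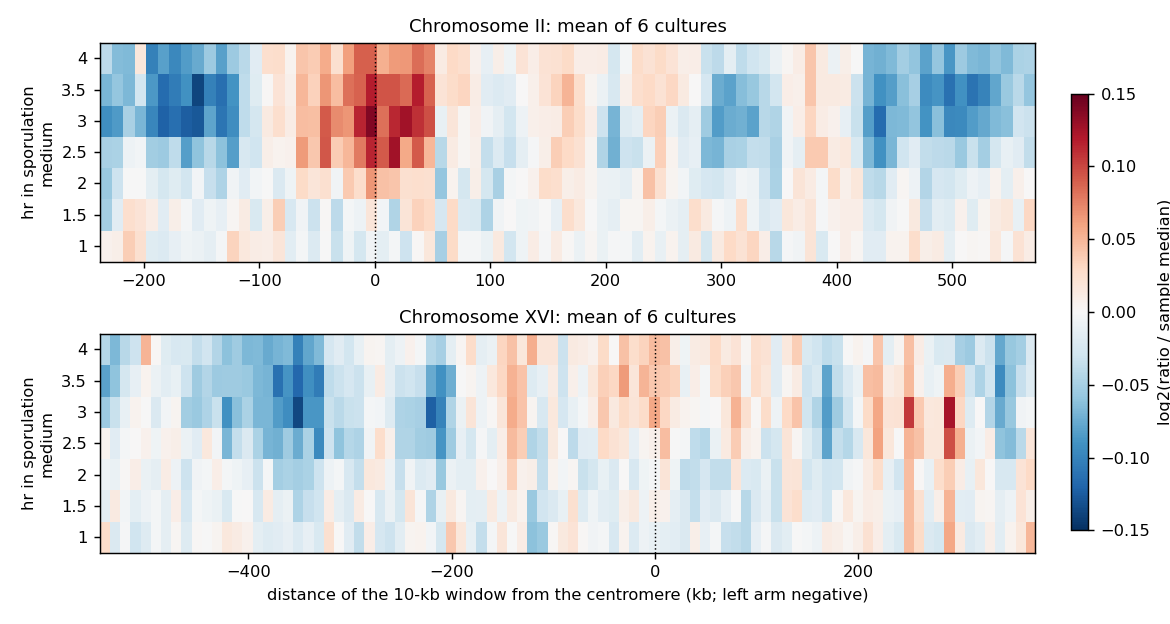
Mean log2(ratio / sample median) of the 6 cultures in 10-kb windows, by hr in sporulation medium (rows) and distance from the centromere in kb (columns), with red above and blue below the median position. On chromosome II the red centromeric block and the blue flanks appear from 2.5 hr and are strongest at 3 and 3.5 hr; on chromosome XVI the blue left-arm block is the clearest feature.

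**Figure D4:**
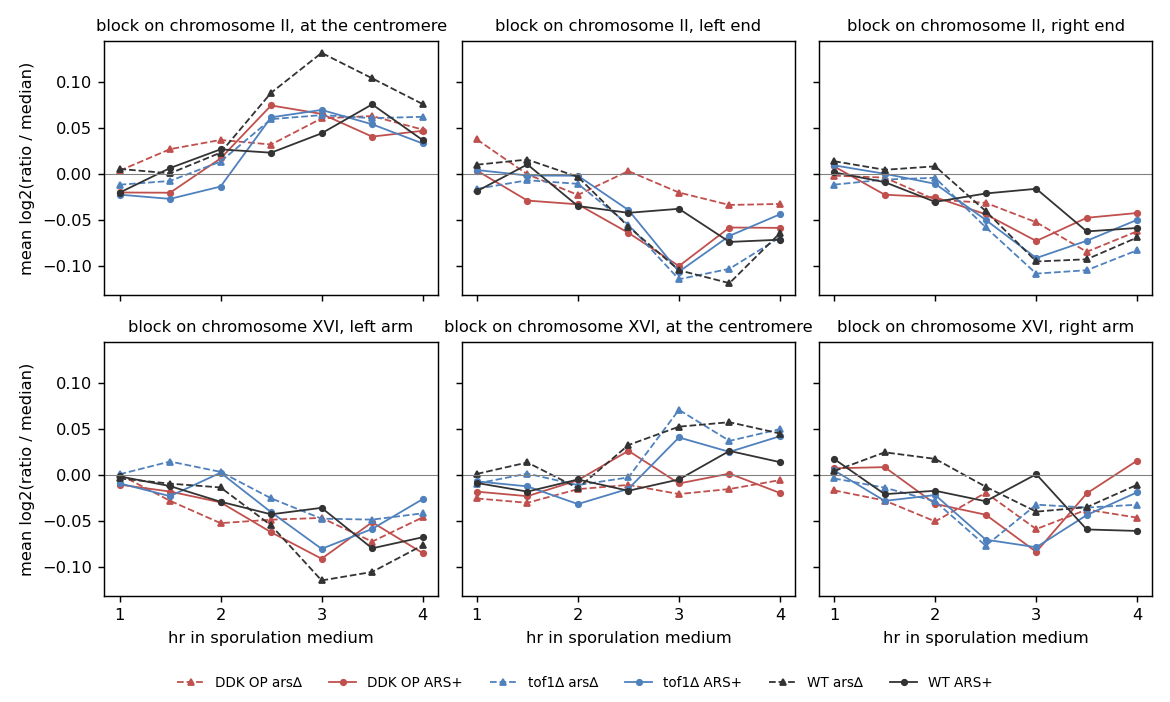
Mean log2(ratio / sample median) of 6 blocks in each culture against hr in sporulation medium; triangles with dashed lines are ars∆ and circles with solid lines ARS+, coloured by background. The centromeric block of chromosome II lies above 0 in 6 of 6 cultures from 2.5 hr on, and the centromeric domain of chromosome XVI stays near or under 0 in the DDK OP cultures at 3 to 4 hr.

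Single peaks and valleys were chosen in the mean profile of the WT cultures and read in the 4 DDK OP and tof1∆ cultures. A peak is the highest position within 25 kb on either side of a running mean over 5 positions and above the mean of its chromosome. A valley is the lowest, and below that mean. The level of 1 to 4 hr gave 23 peaks and 22 valleys. Of the peaks, 6 were above their chromosome's mean in 4 of 4 other cultures, and of the valleys 5 were below it in 4 of 4. The same share over all positions was not counted, so these and the later counts have no background beside them. Peaks minus valleys was positive in 4 of 4 cultures, at 0.022 ± 0.014 (SD, n = 4, exact p = 0.125, the smallest that 4 cultures allow).

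On the left arm of chromosome II the level had 1 of its 5 highest peaks, at 232.5 kb beside the centromere. That peak stood at 0.110 and 0.049 in DDK OP ars∆ and ARS+ and at -0.017 and 0.068 in tof1∆ ars∆ and ARS+. The arm's low points were at 50 kb (mean -0.041 ± 0.060 in the 4 cultures) and 80 kb (-0.050 ± 0.023; SD, n = 4 each). The valley at 80 kb was below the chromosome mean in 4 of 4 cultures and that at 50 kb in 3 of 4.

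On the right arm of chromosome II the highest peaks were at 277.5, 402.5, 490 and 617.5 kb. The peak at 277.5 kb had 0.041 and 0.043 in DDK OP ars∆ and ARS+ and 0.050 and 0.050 in tof1∆ ars∆ and ARS+, the tightest of the named peaks. The peaks at 402.5 kb (0.024 ± 0.014) and 490 kb (0.019 ± 0.022; SD, n = 4 each) were also above the chromosome mean in 4 of 4. The peak at 617.5 kb was above it in both tof1∆ cultures (0.041 in ars∆ and 0.079 in ARS+) and below it in both DDK OP cultures (-0.014 in ars∆ and -0.032 in ARS+). The named valleys were at 337.5, 680 and 717.5 kb, with means of -0.0059 ± 0.0287, -0.064 ± 0.048 and -0.025 ± 0.012 (SD, n = 4 each).

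On chromosome XVI 3 of the 10 named features were on their side of the chromosome mean in 4 of 4 cultures, against 4 of 10 on chromosome II. The left arm had a named peak at 417.5 kb, which was 0.047 and 0.038 in DDK OP ars∆ and ARS+ and 0.024 and 0.039 in tof1∆ ars∆ and ARS+. Its valley at 212.5 kb was -0.039 and -0.042 in DDK OP ars∆ and ARS+ and -0.066 and -0.060 in tof1∆ ars∆ and ARS+. Both were among the 3. The other left-arm valleys among the 5 lowest were at 130, 160, 357.5 and 442.5 kb, with means between -0.019 and 0.0041. The valley at 442.5 kb ran from -0.169 in DDK OP ARS+ to 0.126 in DDK OP ars∆, so it was no shared feature.

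The right arm of chromosome XVI held 4 of the 5 named peaks, at 570, 692.5, 810 and 845 kb. At 570 kb, 14 kb from the centromere, the DDK OP cultures were low (-0.041 in ars∆ and -0.042 in ARS+) and the tof1∆ cultures high (0.026 in ars∆ and 0.031 in ARS+). The peaks at 692.5 kb (0.015 ± 0.038), 810 kb (0.037 ± 0.060) and 845 kb (0.023 ± 0.039; SD, n = 4 each) had spreads larger than their means. That at 845 kb was nonetheless above the chromosome mean in 4 of 4 cultures, and the other two were in 3 of 4. The positions at 810 and 845 kb border gaps in the list.

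Chosen and read in gain, the features recurred more often. The numbers were again 23 peaks and 22 valleys, of which 12 and 11 were on their side of the chromosome mean in 4 of 4 other cultures. Over all windows, cultures also correlated more in gain than in level (median 0.67 against 0.42 on chromosome II and 0.42 against 0.20 on chromosome XVI). The higher counts therefore cannot be read as particular to the chosen features. Peaks minus valleys was 0.049 and 0.045 in DDK OP ars∆ and ARS+ and 0.058 and 0.065 in tof1∆ ars∆ and ARS+, a mean of 0.054 ± 0.009 (SD, n = 4, exact p = 0.125). By time, the same difference was -0.013 ± 0.011 at 1 hr, 0.020 ± 0.014 at 2 hr, 0.060 ± 0.022 at 3 hr and 0.036 ± 0.017 at 4 hr (SD, n = 4 each). Within 15 kb, 4 of 8 peaks of chromosome II chosen by level had a partner among the 10 chosen by gain, and 9 of 15 did on chromosome XVI among 13. For valleys the numbers were 7 of 11 (among 10) on chromosome II and 6 of 11 (among 12) on chromosome XVI.

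The 2 highest gain peaks of chromosome II flanked the centromere, at 200 and 247.5 kb. The peak at 200 kb gained 0.061 and 0.045 in DDK OP ars∆ and ARS+, 0.060 and 0.055 in tof1∆ ars∆ and ARS+, and, in the cultures that chose it, 0.124 and 0.127 in WT ars∆ and ARS+. The peak at 247.5 kb gained 0.064 and 0.102 in DDK OP ars∆ and ARS+, 0.096 and 0.058 in tof1∆ ars∆ and ARS+, and 0.107 and 0.111 in WT ars∆ and ARS+. On the right arm, the next peaks at 412.5, 482.5 and 625 kb were above the chromosome mean in 4 of 4 cultures, at 0.030 ± 0.016, 0.043 ± 0.023 and 0.037 ± 0.027 (SD, n = 4 each).

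The 5 lowest gain valleys of chromosome II were below its mean in 4 of 4 cultures. They lay at 27.5 kb (-0.066 ± 0.044) and 87.5 kb (-0.053 ± 0.031) on the left arm and at 540 kb (-0.071 ± 0.025), 715 kb (-0.072 ± 0.021) and 760 kb (-0.063 ± 0.019; SD, n = 4 each) on the right arm. The valley at 680 kb, outside the 5 lowest in WT, was the lowest in the 4 other cultures, at -0.087 ± 0.016 (SD, n = 4). Gains at 680 kb were -0.076 and -0.071 in DDK OP ars∆ and ARS+ and -0.099 and -0.103 in tof1∆ ars∆ and ARS+.

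On chromosome XVI 7 of 13 gain peaks were above the chromosome mean in 4 of 4 cultures, 3 of them among the 5 highest in WT and 4 outside these, at 512.5, 685, 795 and 832.5 kb. The peaks at 562.5 kb (0.048 ± 0.024) and 630 kb (0.047 ± 0.018; SD, n = 4 each) on the right arm were among the 3, as was that at 285 kb on the left arm (0.030 ± 0.022; SD, n = 4). The peak at 630 kb gained 0.033 in both DDK OP cultures and 0.053 and 0.070 in tof1∆ ars∆ and ARS+. At 20 kb, the first listed position, a WT peak was not shared: the 4 cultures averaged -0.082 ± 0.055 (SD, n = 4). At 442.5 kb DDK OP ARS+ gained 0.203 and DDK OP ars∆ -0.073, the widest disagreement among the named features.

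On chromosome XVI 5 gain valleys were below the chromosome mean in 4 of 4 cultures. They were at 187.5 kb (-0.054 ± 0.027) and 227.5 kb (-0.043 ± 0.013) within the late left block, at 352.5 kb (-0.082 ± 0.032) further along that arm, and at 725 kb (-0.065 ± 0.031) and 900 kb (-0.071 ± 0.015; SD, n = 4 each) on the right arm. Those at 352.5 and 900 kb were not among the 5 lowest in WT. The lowest WT valley, at 150 kb, averaged -0.034 ± 0.022 there (SD, n = 4) and was below the chromosome mean in 3 of 4. The valley at 82.5 kb did not recur: it gained 0.021 and 0.0080 in DDK OP ars∆ and ARS+, 0.031 and 0.020 in tof1∆ ars∆ and ARS+, and -0.062 and -0.086 in WT ars∆ and ARS+. These WT values chose the position, so the difference at 82.5 kb is a description.

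Whole profiles of the cultures were compared over 10-kb windows as a description, since windows of a chromosome are not independent. Over the 81 windows of chromosome II, the correlation between cultures had a median of 0.42 in level and 0.67 in gain (15 pairs). Over the 92 windows of chromosome XVI the medians were 0.20 and 0.42. The gain of chromosome II correlated at 0.77 between the means of DDK OP and WT and at 0.75 between those of tof1∆ and WT, against 0.54 and 0.58 on chromosome XVI.

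Strain differences were tested with limma in 1174 windows of the genome, 173 of them on these chromosomes. The comparisons of DDK OP and of tof1∆ share the WT cultures and are not independent of each other.

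DDK OP against WT gave no called window on either chromosome (0 of 173 at an adjusted p under 0.05, limma), against 0.0852% of all windows. At an unadjusted p under 0.05 there were 9 windows, 5.2% against 5.79% of all windows. Differences were balanced on chromosome II (41 windows higher and 40 lower, median 0.0003) and on chromosome XVI (43 higher and 49 lower, median -0.0019). The lowest p-values on chromosome II were at 290 to 300 kb (-0.094 ± 0.034 SE), 610 to 620 kb (-0.094 ± 0.034 SE) and 710 to 720 kb (0.088 ± 0.034 SE), each with an adjusted p of 0.56. On chromosome XVI they were at 170 to 180 kb (-0.094 ± 0.034 SE, adjusted p = 0.56), 60 to 70 kb (0.079 ± 0.035 SE, adjusted p = 0.71) and 560 to 570 kb (-0.074 ± 0.034 SE, adjusted p = 0.73).

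The window at 610 to 620 kb on chromosome II, at the level peak of 617.5 kb, was at -0.029 and -0.043 in DDK OP ars∆ and ARS+, against 0.080 and 0.037 in WT ars∆ and ARS+. The gap was there from the first sample: at 1 hr the values were -0.029 and -0.053 in DDK OP ars∆ and ARS+, and 0.056 and 0.030 in WT ars∆ and ARS+. Its gain differed by -0.0065 ± 0.0310 (SE). The window at 560 to 570 kb on chromosome XVI, next to the centromere, was at -0.027 and -0.049 in DDK OP ars∆ and ARS+, against 0.050 and 0.022 in WT ars∆ and ARS+. At 3.5 hr it was -0.019 and -0.059 in DDK OP ars∆ and ARS+, and 0.097 and 0.056 in WT ars∆ and ARS+. The neighbouring window with the centromere itself, 550 to 560 kb, differed by 0.0082 ± 0.0344 (SE).

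By gain, the window with the lowest p on chromosome II was 190 to 200 kb in the left flank of the centromere. It gained 0.031 and 0.019 in DDK OP ars∆ and ARS+, against 0.126 and 0.116 in WT ars∆ and ARS+, a difference of -0.096 ± 0.030 (SE, limma adjusted p = 0.78). The window at 210 to 220 kb differed the same way, by -0.082 ± 0.031 (SE, adjusted p = 0.78). In level the window at 190 to 200 kb differed by -0.024 ± 0.034 (SE), and at 1 hr it was -0.020 and -0.065 in WT ars∆ and ARS+, against 0.0066 and 0.031 in DDK OP ars∆ and ARS+. No window passed in gain (0 of 173, against 0.17% of all windows), and 11 had an unadjusted p under 0.05, against 5.37% of all windows. The other windows of lowest p in gain were 800 to 810 kb on chromosome II (-0.124 ± 0.047 SE) and, on chromosome XVI, 10 to 20 kb (-0.1499 ± 0.0565 SE), 50 to 60 kb (0.087 ± 0.033 SE) and 400 to 410 kb (0.085 ± 0.032 SE), each at an adjusted p of 0.78. Of these, 800 to 810 kb and 10 to 20 kb hold 1 listed position each.

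The comparison of tof1∆ with WT also gave no called window (0 of 173, limma, against 0.341% of all windows), and 10 windows at an unadjusted p under 0.05, 5.78% against 5.62% of all windows. On chromosome II 31 windows were higher and 50 lower in tof1∆ (median -0.012), and on chromosome XVI 47 higher and 45 lower (median 0.0043). The lowest p on chromosome II was at 220 to 230 kb, close to the centromere, with -0.142 ± 0.042 (SE, adjusted p = 0.22). This window borders a gap and holds 2 positions, and its gain differed the other way, by 0.0999 ± 0.0317 (SE, adjusted p = 0.48). At 1 hr it stood at -0.223 and -0.034 in tof1∆ ars∆ and ARS+, against 0.139 and 0.051 in WT ars∆ and ARS+.

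The other named windows for tof1∆ repeated part of those for DDK OP. On chromosome II they were 290 to 300 kb (-0.095 ± 0.034 SE, adjusted p = 0.70) and 710 to 720 kb (0.088 ± 0.034 SE, adjusted p = 0.70). On chromosome XVI they were 170 to 180 kb (-0.107 ± 0.034 SE, adjusted p = 0.42), 730 to 740 kb (-0.076 ± 0.034 SE, adjusted p = 0.84) and 270 to 280 kb (0.070 ± 0.034 SE, adjusted p = 0.85). At 710 to 720 kb the level was -0.032 and -0.015 in DDK OP ars∆ and ARS+, -0.023 and -0.024 in tof1∆ ars∆ and ARS+, and -0.128 and -0.095 in WT ars∆ and ARS+. At 170 to 180 kb on chromosome XVI it was -0.053 and -0.085 in DDK OP ars∆ and ARS+, -0.086 and -0.078 in tof1∆ ars∆ and ARS+, and 0.0010 and 0.049 in WT ars∆ and ARS+. In both windows the WT cultures stood apart from the 4 others, and at 1 hr WT was already lower at 710 to 720 kb and higher at 170 to 180 kb than each of them.

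In gain, more windows of chromosome XVI were higher than lower in tof1∆. Of the 92 windows 66 were higher in tof1∆ than in WT, with a median of 0.0147, against 50.3% of all windows higher and a median of 0.0002. On chromosome II 37 windows were higher and 44 lower (median -0.0025). Named windows on chromosome XVI were 410 to 420 kb (0.098 ± 0.032 SE), 80 to 90 kb (0.092 ± 0.030 SE) and 840 to 850 kb (0.131 ± 0.039 SE), each with an adjusted p of 0.48. The window at 840 to 850 kb borders a gap and holds 2 listed positions. At 410 to 420 kb the gain was 0.122 and 0.076 in tof1∆ ars∆ and ARS+, against 0.0079 and -0.0066 in WT ars∆ and ARS+. On chromosome II the lowest p-values besides 220 to 230 kb were at 800 to 810 kb (-0.167 ± 0.047 SE, 1 listed position) and 160 to 170 kb (0.102 ± 0.037 SE), both at an adjusted p of 0.48. No window passed in gain (0 of 173, and 0 of 1174 in the genome, 0%), and 9 had an unadjusted p under 0.05, 5.2% against 8.09% of all windows.

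The ars∆ and ARS+ cultures were compared in pairs, ars∆ against ARS+ within each background. On these chromosomes 1 window of 173 was called (limma), against 0.17% of all windows, and 6 had an unadjusted p under 0.05 (3.47%, against 4.86% of all windows). Medians of the differences were 0.0041 on chromosome II and -0.0008 on chromosome XVI, so there was no general shift. The smallest p-values on chromosome XVI were at 840 to 850 kb (-0.076 ± 0.033 SE, adjusted p = 0.85), 780 to 790 kb (0.063 ± 0.028 SE, adjusted p = 0.86) and 890 to 900 kb (-0.051 ± 0.028 SE, adjusted p = 0.98). The first of these borders a gap and holds 2 listed positions.

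The called window was 260 to 270 kb on chromosome II, inside the centromeric block. Its level was 0.170 in DDK OP ars∆ against -0.018 in DDK OP ARS+, 0.113 in tof1∆ ars∆ against 0.028 in tof1∆ ARS+, and 0.091 in WT ars∆ against -0.089 in WT ARS+. The difference was 0.151 ± 0.029 (SE, limma adjusted p = 0.0055; higher in 3 of 3 pairs). At 1 hr it already stood at 0.145 in DDK OP ars∆ against -0.128 in DDK OP ARS+, 0.024 in tof1∆ ars∆ against -0.047 in tof1∆ ARS+, and -0.013 in WT ars∆ against -0.169 in WT ARS+. In gain the difference was -0.026 ± 0.028 (SE, adjusted p = 0.998), and 0 of 173 windows passed, against 0.511% of all windows, with 2 at an unadjusted p under 0.05, against 3.92% of all windows. The window borders the gap after 260 kb and has 3 listed positions. Its SE was drawn mostly from the spread pooled over all windows. Windows with fewer than 4 listed positions scattered more (median residual SD 0.079, against 0.026 in full windows). The positions at 265, 267.5 and 270 kb differed by 0.179, 0.155 and 0.119, that at 270 kb being higher in 2 of 3 pairs. To the right, those at 272.5 and 275 kb differed by 0.0096 and -0.0040. To the left of the gap, those at 255 and 257.5 kb differed by 0.078 and 0.094, each higher in 3 of 3 pairs. The position at 260 kb differed by 0.049 (higher in 2 of 3 pairs), and that at 252.5 kb by 0.016. Leaving out either culture of a background takes its pair out of this comparison, so both give the same estimate. The call was lost without the WT pair, where the difference was 0.136 ± 0.036 (SE, limma). It was 0.132 ± 0.036 without the DDK OP pair and 0.184 ± 0.032 without the tof1∆ pair (SE).

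The window with the next lowest p, 30 to 40 kb on chromosome II, also borders a gap and has 3 listed positions. It was higher in ars∆ by 0.099 ± 0.029 (SE, adjusted p = 0.18). Of its positions, that at 35 kb differed by 0.279, with 0.276 in DDK OP ars∆ against -0.038 in DDK OP ARS+, 0.1004 in tof1∆ ars∆ against -0.1254 in tof1∆ ARS+, and 0.121 in WT ars∆ against -0.175 in WT ARS+. The positions at 37.5 and 40 kb differed by 0.016 and 0.0038. At 210 to 220 kb the difference was 0.061 ± 0.028 (SE, adjusted p = 0.86). In gain the lowest p on chromosome II was at 470 to 480 kb (0.096 ± 0.026 SE, adjusted p = 0.23), which borders a gap as well, followed by 600 to 610 kb (0.057 ± 0.027 SE) and 430 to 440 kb (-0.049 ± 0.026 SE). On chromosome XVI the windows were 430 to 440 kb (-0.109 ± 0.043 SE), 60 to 70 kb (-0.059 ± 0.029 SE) and 320 to 330 kb (-0.059 ± 0.031 SE), and these 5 had an adjusted p of 0.998.

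**Figure D5:**
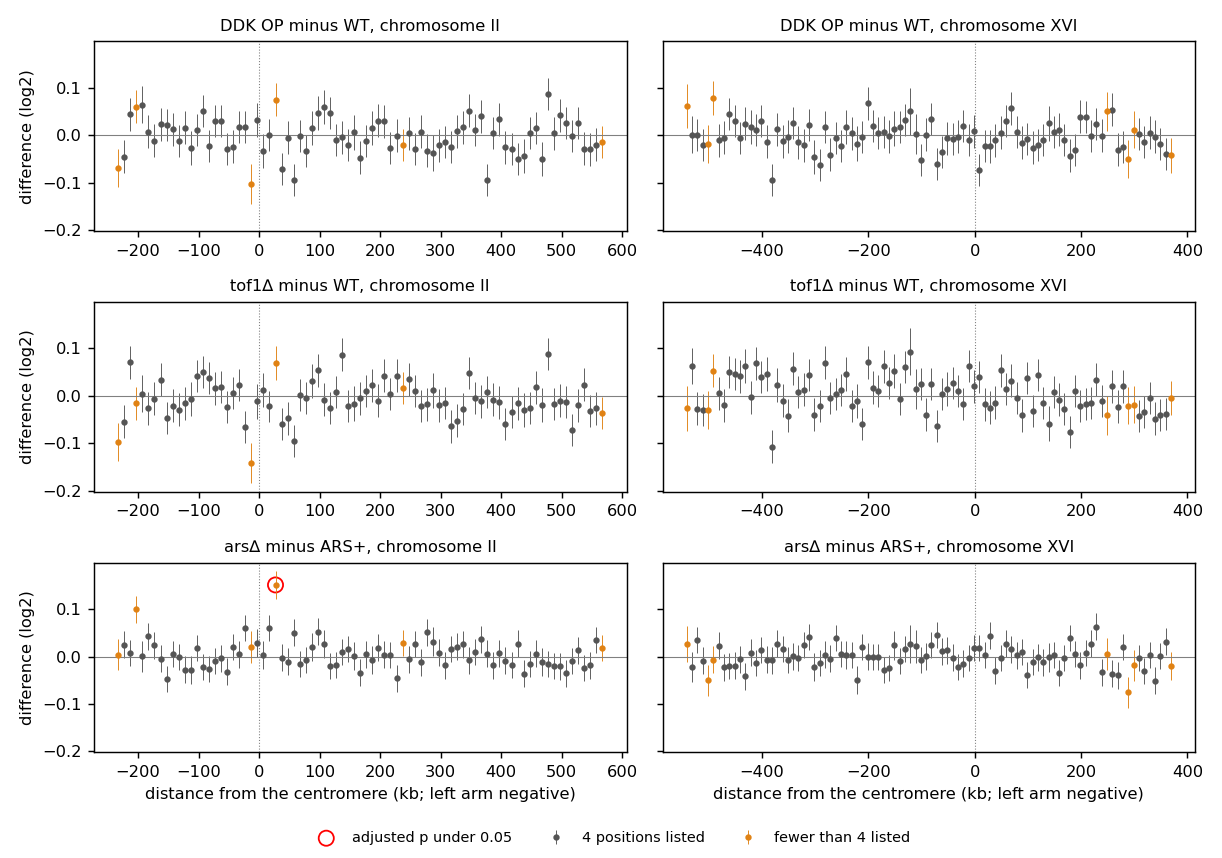
Differences in level (mean of 1 to 4 hr, log2) by 10-kb window against distance from the centromere in kb, for DDK OP minus WT, tof1∆ minus WT and ars∆ minus ARS+ on both chromosomes; bars are the SE from limma and orange marks windows with fewer than 4 listed positions. The single window with an adjusted p under 0.05 (red ring) is the one at 260 to 270 kb of chromosome II in the ars∆ comparison.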

How the data were processed

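The authors deposited 1 table of ratios per strain at positions 2.5 kb apart, with columns from 1 to 4 hr. Samples at 0 hr were not analysed here. Per the submitters' processing notes, the aligner was BWA and the genome build sacCer2; the version of BWA, the denominator and the counts behind the deposited ratios are not given in the sources used here, so the depth is unknown.

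Ratios were divided by each sample's median and log2-transformed. Windows of 10 kb were compared with limma 3.58.1 (lmFit, eBayes; R 4.3.3) over 6 cultures, with background and ars state as terms, 2 residual and 29.8 prior degrees of freedom, and Benjamini-Hochberg adjustment over 1174 windows at 0.05. The script was tested on simulated data. The 8 chromosome contrasts used exact two-sided sign-flip permutation tests over cultures. Named windows are those called and the 3 of lowest p per chromosome; named peaks and valleys are the 5 most extreme per chromosome. Windows of gain follow the same rule. Centromere positions, members and lists were chosen with earlier results of these data known. The 50-kb domains, the blocks and the single positions near gaps were chosen after values were seen. Alternatives were other times, centring, window sizes, filters and left-out cultures. No genome of this build was used here, so no genes, origins or sequences are given.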

Additional observations from a re-analysis of the deposited data

Results flagged for a closer look

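Among 68 comparisons of sign between backgrounds, 4 had every culture of 1 background on the opposite side of 0 from every culture of another. These differences between backgrounds were not tested themselves. The number of such splits that random signs would give was not set beside the 4, so the count is no result. Chromosome XVI against the other chromosomes, in gain, was positive in both tof1∆ cultures and negative in the 4 others; DDK OP minus tof1∆ was -0.0156 and tof1∆ minus WT 0.0193. The left arm of chromosome II against its right arm, in gain, was -0.016 in both DDK OP cultures and 0.0030 and 0.0061 in tof1∆ ars∆ and ARS+, a difference of -0.0207. At 560 to 570 kb on chromosome XVI the level minus that of WT was -0.077 and -0.071 in DDK OP ars∆ and ARS+, and 0.026 and 0.051 in tof1∆ ars∆ and ARS+, a difference of -0.113. Against WT, that window gave an adjusted p of 0.73 for DDK OP and 0.95 for tof1∆ (limma). It was included because its p was among the lowest for DDK OP minus WT, so its DDK OP side was chosen on these values.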

How the results depend on the processing

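Of 121 alternative settings over 12 results, 58 rest on tests that cannot pass 0.05: the 48 that leave out a culture from the 8 contrasts (smallest exact p 0.0625 with 5 cultures) and the 10 of peaks minus valleys (0.125 with 4). These bear on direction and size alone. Of the other 63, 48 were unchanged. For contrasts that means the same direction and side of the threshold. For windows called it means the same number of calls, whichever windows they were. None of the 88 settings of the contrasts and of peaks minus valleys reversed a direction. Centring on the mean ratio is counted among the 88 and among the 48 unchanged. It shifts every position of a sample equally, so it could not change these differences. Without the outer 30 kb of each chromosome, the family held fewer contrasts, and 4 of them passed at an adjusted p of 0.047 (exact sign-flip test): -0.0124 for the mean of chromosome II, -0.0146 for that of chromosome XVI, 0.0676 for the pericentromere of chromosome II and 0.0247 for that of chromosome XVI. With the ends kept, these differences were -0.0131, -0.0149, 0.0685 and 0.0254, already at the smallest exact p of 6 cultures (0.031, sign-flip test). The lower adjusted p thus came from the smaller family, not from larger differences. The number of windows called for ars∆ (limma) was 0 in gain (2 at an unadjusted p under 0.05) and 0 among windows with all 4 positions listed (3 at an unadjusted p under 0.05). With 5-kb windows the call moved to 30 to 35 kb on chromosome II (0.279, adjusted p = 0.0070). Leaving out 1 culture at a time, the windows called ranged from 0 to 2 for ars∆, from 0 to 3 for DDK OP and from 0 to 1 for tof1∆. Without DDK OP ARS+ the DDK OP calls were 40 to 50 kb on chromosome II and 10 to 20 and 430 to 440 kb on chromosome XVI; without DDK OP ars∆ the call was 220 to 230 kb on chromosome II. That window was the one called for tof1∆ without either DDK OP culture or without tof1∆ ARS+. For ars∆, 840 to 850 kb on chromosome XVI was added without either DDK OP culture, and no window was called without either WT culture. Where a culture is left out, the lone culture of its background is assumed to vary like the others. For ars∆ that lone culture does not enter the difference. Leaving out either culture of a background thus gives the same ars∆ result, and these settings, both counted among the 63, are not separate checks. Other causes were not tested. No paired analysis was possible because the strains share only 1 replicate number; the comparison of ars∆ with ARS+ was paired by background, a term of the fit. Depth is unknown, so counting error cannot be set apart from the spread between cultures.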

Other observations

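Windows of chromosomes II and XVI with fewer than 4 listed positions, at gaps in the list or at chromosome ends, scattered more between cultures. The 13 windows with fewer than 4 listed positions had a median residual SD of 0.079, and the 160 full windows one of 0.026. At an unadjusted p under 0.05 (limma) the incomplete windows held 3 of the 9 windows for DDK OP, 2 of the 10 for tof1∆ and 3 of the 6 for ars∆. The part of incomplete windows in the strain comparisons was not tested beyond these counts and the fit on full windows.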
